A study of Mus musculus with 24 samples.

Results

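miR-132 and miR-212 are a pair of microRNAs (miRNAs, short RNAs that lower the output of messenger RNAs with matching sites) processed from 1 primary transcript. Their 4 mature miRNAs are mmu-miR-132-3p, mmu-miR-132-5p, mmu-miR-212-3p and mmu-miR-212-5p. Of these, 3 were taken by name from the 1009 listed miRNAs, and mmu-miR-212-3p was not analysed here. As background, the transcript is induced by the transcription factor CREB, the 3p arm is the main product of Mir132, and the family is abundant in neurons. In the mouse mammary gland the family was described in the stroma around the ducts and linked to duct outgrowth through the matrix enzyme MMP9, and later knockout work reported that duct growth did not need it.

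Small RNA was sequenced from mammary glands of C57/BL6 female mice at 4 stages, with 6 mice per stage. Adult glands were taken at 10 weeks (W10) and pregnant glands on gestation day 18 (P18). Lactating glands were taken on lactation day 7 (Lac7), and involuting glands, which regress after weaning, on involution day 3 (Inv3). Each library came from a whole homogenate of the abdominal and inguinal glands, so the stromal origin in the working name of the family could not be checked and the level of a miRNA mixes all cell types of the gland. Fewer cells of a type and less RNA per cell cannot be told apart in such tissue. Levels are reads scaled to a library total of 1000000 miRNA reads (RPM), and libraries held 660346 to 1165321 reads, with medians of 967413 at W10, 952079 at P18, 693166 at Lac7 and then 1030977 at Inv3. In a single library 3 reads, taken as the floor of detection, correspond to between 2.57 and 4.54 RPM.

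The mature sequences show why the 2 hairpins form a family, and are given from RefSeq (GRCm38.p6), 5′ to 3′, with the seed, bases 2 to 8, in capitals.
mmu-miR-132-3p: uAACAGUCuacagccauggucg
mmu-miR-212-3p: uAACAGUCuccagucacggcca
mmu-miR-132-5p: aACCGUGGcuuucgauuguuac
mmu-miR-212-5p: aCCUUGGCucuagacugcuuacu
The 3p arms are identical at 17 of 22 positions, including the first 9, and share the seed AACAGUC. No other of the 1679 mature mouse miRNAs in the reference table carries this seed. The 5p arms are identical at 9 of 22 positions and each has a seed of its own, shared with no other mature miRNA of the table.

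Both hairpins lie on the plus strand of chromosome 11 (GRCm38), Mir212 at chr11:75173388-75173478 and Mir132 at chr11:75173682-75173747, with 203 bases between them. They sit in the first intron of the noncoding gene 1700016P03Rik, whose exon 1 ends at position 75172597 and whose exon 2 starts at 75173978. The closest protein-coding genes on the minus strand are Ovca2, at 2195 bases, and Hic1, at 3869 bases. The hairpin sequences are shown with both mature arms in capitals, to place the arms that were counted.
Mir212: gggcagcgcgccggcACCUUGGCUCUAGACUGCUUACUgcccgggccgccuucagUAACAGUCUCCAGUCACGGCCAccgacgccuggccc
Mir132: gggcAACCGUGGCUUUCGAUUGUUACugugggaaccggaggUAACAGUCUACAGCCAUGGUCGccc
Over the 24 libraries, mmu-miR-132-3p had 339 reads, mmu-miR-132-5p had 88 and mmu-miR-212-5p had 16.

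**Figure D1:**
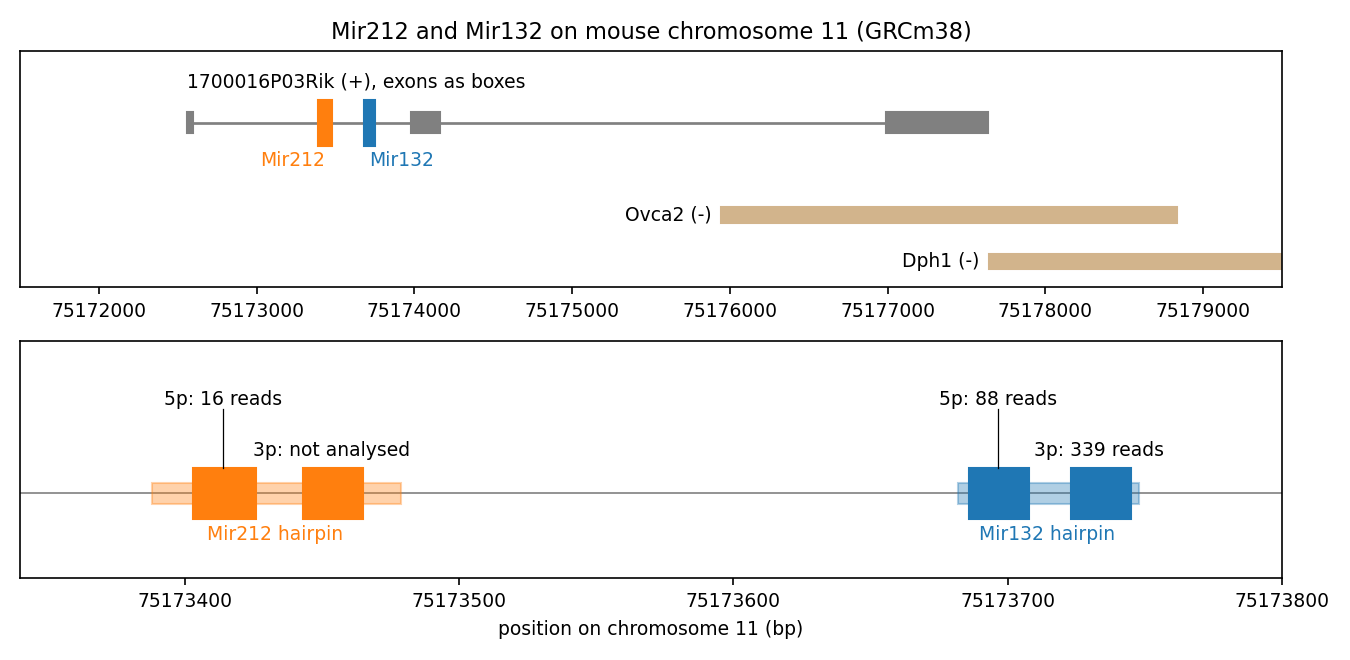
Map of the Mir212 and Mir132 hairpins on chromosome 11, with position in bases on the horizontal axis (GRCm38). The upper map shows the host gene 1700016P03Rik with its exons as grey boxes and neighbouring genes in tan; the lower map shows the hairpins with their mature arms as dark boxes and the reads of each arm summed over 24 libraries, from 16 for mmu-miR-212-5p to 339 for mmu-miR-132-3p.

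mmu-miR-132-3p, the most abundant of the measured members, was high in the adult and involuting gland and lower in the pregnant and lactating gland. In the 6 W10 mice it measured from 14.9 to 30.1 RPM, with a median of 18.1 and a mean of 20.1 ± 5.40 (SD, n = 6). In the 6 P18 mice it measured from 4.29 to 13.3 RPM, with a median of 8.40 and a mean of 8.50 ± 2.98 (SD, n = 6). Every W10 mouse was above every P18 mouse. At Lac7 the values ran from 3.99 to 13.4 RPM, with a median of 8.99 and a mean of 8.75 ± 3.94 (SD, n = 6). At Inv3 they ran from 13.3 to 32.4 RPM, with a median of 19.9 and a mean of 21.4 ± 6.65 (SD, n = 6). Every Inv3 mouse was above every P18 mouse, and the lowest Inv3 mouse, at 13.31 RPM, lay just under the highest Lac7 mouse, at 13.38 RPM. By mean level, mmu-miR-132-3p ranked 261st of 1009 at W10, 300th at P18, 273rd at Lac7 and then 239th at Inv3.

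These levels rest on few reads. The W10 libraries held 16 to 28 reads of mmu-miR-132-3p, the P18 libraries 5 to 13, the Lac7 libraries 3 to 10 and the Inv3 libraries 13 to 36. The spread that counting alone would give at these depths was 4.48 RPM at W10, 2.97 at P18, 3.54 at Lac7 and then 4.67 at Inv3, against SDs between mice of 5.40, 2.98, 3.94 and 6.65. At P18 and Lac7 the SD lay close to the counting spread, so differences between mice could not be separated from counting error at this depth. At W10 and Inv3 the SD was above the counting spread, but whether by more than 6 mice would give without such differences was not tested. The counting spread takes reads as independent molecules. Pooled over the 6 mice, the 49 reads at P18 gave 8.39 RPM with an exact 95% Poisson interval of 6.20 to 11.1, and the 121 reads at W10 gave 20.0 RPM with an interval of 16.6 to 23.9. The intervals cover counting error only, since reads copied by PCR are not independent molecules.

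**Figure D2:**
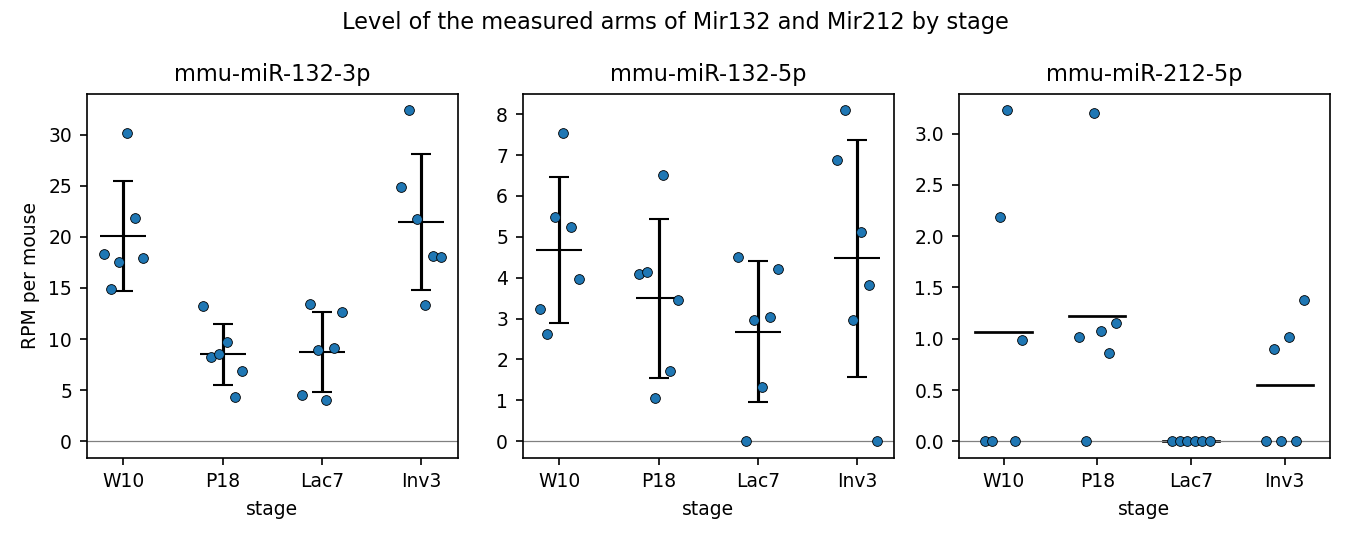
RPM of the 3 measured arms in each mouse (points) at W10, P18, Lac7 and Inv3, on vertical axes that differ between panels; horizontal lines are means of 6 mice and, for the Mir132 arms, bars are SD. mmu-miR-132-3p lies at 14.9 RPM or more in every W10 mouse and at 13.4 RPM or less in every P18 and Lac7 mouse, and mmu-miR-212-5p had no read in the 6 Lac7 mice.

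The comparison of the pregnant with the adult gland asks how the family stands at the end of the growth of the secretory tissue. mmu-miR-132-3p was lower at P18, its mean at W10 being 2.37 times that at P18. limma on log2(RPM + 1) over the 544 miRNAs that averaged 1 RPM or more in some stage gave a log2 fold change of -1.18 ± 0.29 (SE) and an adjusted p of 0.00164. A miRNA was called at an adjusted p under 0.05 and a log2 fold change of at least 1 in size, so 1 of the 3 measured members was called lower, where 20.0% of all tested miRNAs were. All W10 mice above all P18 mice was true of 1 of the 3 and of 16.9% of the tested miRNAs. The median of all tested miRNAs was itself -0.32 here, and rescaling by DESeq2 size factors moved it to -0.12. With that scaling mmu-miR-132-3p stood at -0.94, with edgeR on whole reads at -0.93 and with DESeq2 at -0.995, each under the fold limit with adjusted p-values from 0.00579 to 0.0127, where all alternatives ran from 0.000817 to 0.0127.

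Between pregnancy and lactation no change of mmu-miR-132-3p was detectable. Its log2 fold change at Lac7 against P18 was -0.01, with a 95% interval of -0.62 to 0.59 (limma, adjusted p = 0.979), and it turned to 0.26 with size factors, 0.21 in edgeR and 0.36 in DESeq2. Among all tested miRNAs 22.6% were called lower at Lac7 than at P18, with a median of -0.34, or -0.14 under size factors.

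From lactation to involution mmu-miR-132-3p rose. Its Inv3 mean was 2.45 times the Lac7 mean, with a log2 fold change of 1.26 ± 0.29 (SE, limma, adjusted p = 0.000855). This call of 1 of the 3 members stood where 16.5% of tested miRNAs were called higher at Inv3. Size factors gave 1.11, edgeR 1.23 and DESeq2 1.12, and all 3 kept the call. The median of all tested miRNAs was 0.28, or 0.18 with size factors. Against pregnancy the Inv3 mean was 2.52 times as high, with a log2 fold change of 1.25 ± 0.29 (SE, limma, adjusted p = 0.00218). Here 4.41% of tested miRNAs were called higher, and 4.23% had all Inv3 mice above all P18 mice, as 1 of the 3 members did. The fold was 1.37 with size factors, 1.44 in edgeR and 1.48 in DESeq2 on the log2 scale, and the median of all tested miRNAs was -0.11, or -0.02 with size factors.

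mmu-miR-132-3p was also lower in the lactating than in the adult gland, in a comparison where 39.7% of tested miRNAs were called lower and the median was -0.66. It was the only called member of the 3, at -1.19 ± 0.29 (SE, limma, adjusted p = 0.000909), its W10 mean being 2.30 times its Lac7 mean. Every W10 mouse was above every Lac7 mouse, which held for 29.4% of tested miRNAs. This difference depended on the scaling. With size factors, which moved the median to -0.31, mmu-miR-132-3p stood at -0.68, in edgeR at -0.72 and in DESeq2 at -0.63, where the adjusted p was 0.102 against 0.000456 to 0.102 over all alternatives. None of these 3 reached the fold limit. A pseudocount of 10 RPM, near the level of mmu-miR-132-3p, likewise brought it under the fold limit in each of its 4 called comparisons, to between -0.70 and 0.75.

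Involuting and adult glands did not differ detectably in mmu-miR-132-3p, with a log2 fold change of 0.07 and a 95% interval of -0.53 to 0.67 (limma, adjusted p = 0.882). Of all tested miRNAs, 25.0% were called in 1 direction or the other between these stages, with a median of -0.41, or -0.10 under size factors. The value was 0.43 with size factors, 0.51 in edgeR and 0.49 in DESeq2, none of them called, although the edgeR value had an unadjusted p under 0.05. By mean RPM the order was thus Inv3, W10, Lac7 and P18, and limma called no difference between the neighbours Inv3 and W10, or between Lac7 and P18.

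mmu-miR-132-5p, the other arm of the same hairpin, was present at a fraction of the level of its partner. It measured 2.62 to 7.53 RPM at W10, with a median of 4.62 and a mean of 4.69 ± 1.78 (SD, n = 6). At P18 it measured 1.07 to 6.51 RPM, with a median of 3.77 and a mean of 3.50 ± 1.94 (SD, n = 6). At Lac7 it measured 0 to 4.50 RPM, with a median of 3.00 and a mean of 2.67 ± 1.72 (SD, n = 6). At Inv3 it measured 0 to 8.10 RPM, with a median of 4.47 and a mean of 4.48 ± 2.90 (SD, n = 6). The 4 stages overlapped, and 11 of the 24 libraries held more than 3 reads of it, none of them at Lac7. The means put W10 and Inv3 above P18 and Lac7, as for the 3p arm, but limma called 0 of the 6 comparisons, with 0 at an unadjusted p under 0.05 and 0 called in edgeR or DESeq2. Its largest difference in limma on RPM was Lac7 against W10, at -0.77 with a 95% interval of -1.73 to 0.18 (limma, adjusted p = 0.145). That interval contains the value of mmu-miR-132-3p in the same comparison, so a like change of the 5p arm could not be told from none at this depth. Without Lac7 mouse 2 the 5p difference was -0.436. It was -0.369 with size factors, -0.344 in edgeR and -0.265 in DESeq2. There Inv3 against Lac7 was the larger difference, at 0.399, 0.769 and 0.663.

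The share of reads from the 3p arm was 81.2% of 149 Mir132 reads at W10, with an exact 95% binomial interval of 74.0 to 87.1%. It was 71.0% of 69 reads at P18 (58.8 to 81.3%), 77.1% of 48 reads at Lac7 (62.7 to 88.0%) and 82.0% of 161 reads at Inv3 (75.2 to 87.6%). The intervals overlap. They pool the reads of 6 mice and cover counting error only, and the difference in arm use between stages was not tested. Over all 24 mice the 3p arm made up 79.4% of 427 reads, and it was above the 5p arm in 23 mice and level with it in the remaining 1.

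mmu-miR-212-5p was at the limit of detection at every stage. It had 6 reads at W10, 7 at P18, 0 at Lac7 and then 3 at Inv3, each summed over 6 mice, and no library held more than 3. Single mice measured 0 to 3.23 RPM at W10, 0 to 3.20 at P18 and 0 to 1.38 at Inv3. The count of 0 among 4211900 Lac7 reads allows a level of up to 0.712 RPM, taken as 3 reads of that total, or 0.876 RPM as the upper exact 95% Poisson bound. The 7 reads at P18 give 1.20 RPM with an exact 95% Poisson interval of 0.482 to 2.47. The Lac7 against P18 difference passed the limits of limma (adjusted p = 0.0256) and so counted as a call of 1 of the 3 members, in the comparison where 22.6% of tested miRNAs were called lower. It rested on single reads, and without P18 mouse 3, which held 3 of the 7 reads, the adjusted p was 0.0827, within a range of 0.0066 to 0.239 over all alternatives. No fold is read from it, since every library was at or under 3 reads and the fitted coefficient is set by the pseudocount.

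Summed over the 3 measured members, the family reached 25.9 ± 8.07 RPM at W10, 13.2 ± 4.18 at P18, 11.4 ± 3.93 at Lac7 and then 26.4 ± 8.65 at Inv3 (SD, n = 6 each). The sum ran from 5.32 RPM in a Lac7 mouse to 41.4 RPM in an Inv3 mouse. These sums leave out mmu-miR-212-3p.

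The miRNAs whose pattern over the 24 libraries was most like that of mmu-miR-132-3p were sought among 321 others that averaged 10 RPM or more in some stage, by Pearson's r of log2(RPM + 1). The 5 highest were mmu-let-7d-3p (r = 0.79), mmu-miR-99b-5p (0.79), mmu-miR-21a-5p (0.78), mmu-miR-140-3p (0.78) and mmu-miR-652-3p (0.77), where the median over the 321 was 0.21. After the stage means were subtracted, r was 0.42, 0.40, 0.11, 0.02 and 0.67 in the same order. The likeness to mmu-miR-21a-5p and to mmu-miR-140-3p was thus a likeness of stage means. With size factors r was 0.70, 0.75, 0.73, 0.74 and 0.74, and the 5 ranked 6, 1, 4, 3 and 2 of 321. mmu-miR-21a-5p, one of the most abundant miRNAs of the gland, averaged 32862 RPM at W10, 13197 at P18, 10648 at Lac7 and then 31169 at Inv3. mmu-miR-140-3p averaged 3463 RPM at W10, 1467 at P18, 1236 at Lac7 and then 3336 at Inv3. Both mmu-miR-21a-5p and mmu-miR-140-3p were called in the same 4 comparisons and directions as mmu-miR-132-3p. mmu-let-7d-3p was also called at Inv3 against W10, and mmu-miR-99b-5p and mmu-miR-652-3p were not called at Inv3 against Lac7. All 5 were picked for a high r in the same libraries, which favours shared calls. How many other tested miRNAs had these calls was not counted.

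The 3 lowest values of r were those of mmu-miR-30b-3p (-0.77), the hypoxia-induced mmu-miR-210-3p (-0.76) and mmu-let-7a-5p (-0.75). This depended on the scaling, since with size factors they ranked 314, 312 and 294 of 321, at r of -0.64, -0.61 and -0.52. mmu-miR-210-3p averaged 31.6 RPM at W10, 303 at P18, 737 at Lac7 and then 74.2 at Inv3. All values of r share the same 24 libraries and their depths, and are a description. The r of mmu-miR-132-3p with its own 5p arm was 0.33, and 0.20 after the stage means were subtracted.

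Of the 4 other miRNA genes annotated within 1000000 bases of the hairpins, Mir22 had values. Mir22 lies 289969 bases away on the same strand. mmu-miR-22-3p averaged 429 ± 152 RPM at W10, 180 ± 54.1 at P18, 208 ± 27.3 at Lac7 and then 303 ± 58.3 at Inv3 (SD, n = 6 each). It fell with mmu-miR-132-3p at P18 against W10, at -1.22 ± 0.21 (SE, limma, adjusted p = 2.43e-05), but its 0.53 at Inv3 against Lac7 was under the fold limit (limma, adjusted p = 0.0389). Whether the 2 loci differ in that comparison was not tested.

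Lists of miRNAs known from single cell types were set beside the family, since whole glands mix cell types. The stromal fibroblast list had 8 of 9 members measured, its most abundant being mmu-miR-199a-3p, at a mean of 82291 RPM at W10. Its sum was 93421 ± 11175 RPM at W10, 56804 ± 5056 at P18, 23555 ± 2890 at Lac7 and then 57018 ± 10579 at Inv3 (SD, n = 6 each). Of its 8 miRNAs, 3 were called lower at P18 than W10, 6 lower at Lac7 than W10, 6 higher at Inv3 than Lac7 and 1 higher at Inv3 than P18. Their medians were -0.82, -1.90, 1.26 and 0.12 in these comparisons. Of all 544 tested miRNAs, 109, 216, 90 and 24 were called in the same directions. With size factors the fibroblast counts were 1, 5, 5 and 1, and at Lac7 against W10 1 other was then called higher. On RPM, mmu-miR-152-3p of this list went the other way at Lac7 against W10, at 0.59 ± 0.14 (SE, limma, adjusted p = 0.000581). At Inv3 against Lac7 it was -0.40 ± 0.14 (SE, limma, adjusted p = 0.02), and both values were under the fold limit. At Lac7 against P18, where no change of mmu-miR-132-3p was detectable, 4 of the 8 were called lower at a median of -0.95, or 2 with size factors. Of all 544, 123 were called lower there, or 90 with size factors. At Inv3 against W10, limma called 2 of the 8 lower at a median of -0.70, where 106 of all 544 were called lower, and neither call held with size factors (median -0.32), in edgeR or in DESeq2. mmu-miR-199a-3p itself was -1.37 ± 0.12 (SE, limma, adjusted p = 1.01e-09) at Lac7 against P18.

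The leukocyte list, with all 6 members measured and mmu-miR-142a-5p its most abundant, summed to 39958 ± 10314 RPM at W10, 17346 ± 6134 at P18, 7053 ± 3965 at Lac7 and then 18493 ± 4474 at Inv3 (SD, n = 6 each). Of the 6, 4 were called lower at P18 than W10, 6 lower at Lac7 than W10, 6 higher at Inv3 than Lac7 and 1 higher at Inv3 than P18. The medians were -1.22, -2.63, 1.72 and 0.36, and 109, 216, 90 and 24 of all 544 tested miRNAs were called in the same directions. With size factors the leukocyte counts were 3, 5, 6 and 1. At P18 against W10 edgeR and DESeq2 each called 2 of the 6. Where no change of mmu-miR-132-3p was detectable, 5 of the 6 were called lower at Lac7 than P18 (median -1.36), or 4 with size factors. In DESeq2 2 of the 6 were called there. At Inv3 against W10 3 were called lower (median -0.92), or 1 with size factors. Of all 544 tested miRNAs, 123 and 106 were called lower in these comparisons. Most of the epithelium list moved the opposite way to mmu-miR-132-3p in 3 of its 4 called comparisons. Its 9 members, led by mmu-miR-200a-3p, summed to 18210 ± 2238 RPM at W10, 61252 ± 5680 at P18, 130821 ± 8453 at Lac7 and then 52448 ± 26148 at Inv3 (SD, n = 6 each), with 8 of 9 called higher at P18 than W10 (median 1.64), 8 of 9 higher at Lac7 than W10 (median 2.98) and 7 of 9 lower at Inv3 than Lac7 (median -1.52). Of all 544 tested miRNAs, 41, 57 and 56 were called in these directions. At Inv3 against P18 the median was -0.33. mmu-miR-205-5p, a miRNA of basal epithelium, was the exception, called higher at Inv3 than Lac7 at 2.06 ± 0.25 (SE, limma, adjusted p = 1.5e-07), and lower at Lac7 than W10 at -1.42 ± 0.25 (SE, limma, adjusted p = 1.63e-05), a call that size factors ended. The epithelium list also moved where no change of mmu-miR-132-3p was detectable. At Lac7 against P18 6 of 9 were called higher and 1 lower (median 1.12), beside 41 and 123 of all 544. At Inv3 against W10 7 of 9 were called higher (median 1.39), beside 30 of all 544. The sum of the epithelium list ranged widely among the Inv3 mice, from 25977 to 83723 RPM. The part of these lists in the course of mmu-miR-132-3p was not tested.

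**Figure D3:**
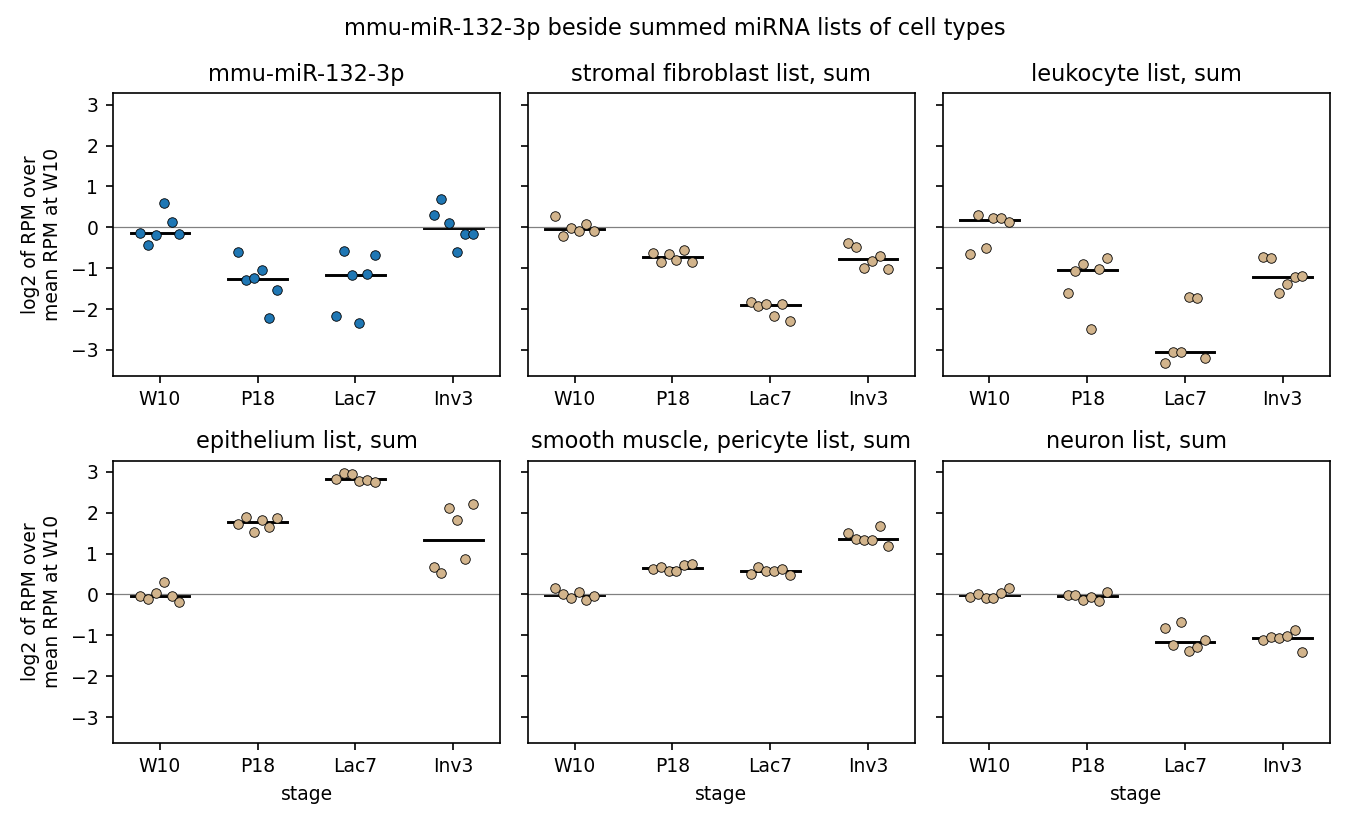
log2 of the RPM in each mouse (points) over the mean RPM at W10, for mmu-miR-132-3p and for the summed miRNA lists of 5 cell types; black lines are medians of 6 mice. mmu-miR-132-3p was about level between P18 and Lac7, at means of 8.50 and 8.75 RPM, while the fibroblast sum averaged 56804 and 23555 RPM and the epithelium sum 61252 and 130821 RPM.

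The neuron list bears on the tissue in which the family is best known. Its most abundant member over all stages was mmu-miR-138-5p, although mmu-miR-9-5p was above it at W10, and of its 8 members 7 reached 1 RPM at 1 or more stages, mmu-miR-129-5p being the exception. The sum was 405 ± 28.0 RPM at W10, 389 ± 22.2 at P18, 194 ± 38.8 at Lac7 and then 192 ± 22.6 at Inv3 (SD, n = 6 each). At P18 against W10, mmu-miR-138-5p was called higher, with means of 247 and 118 RPM, and 3 of the 7 were called lower, among them mmu-miR-9-5p with means of 58.3 and 159 RPM. At Inv3 against Lac7, mmu-miR-219a-5p was called higher, at 1.72 ± 0.48 (SE, limma, adjusted p = 0.00446). The medians over the 7 were -0.76 and 0.25 in these comparisons. Of all 544 tested miRNAs, 41 were called higher and 109 lower at P18 than W10, and 90 higher at Inv3 than Lac7. At Lac7 against W10, where mmu-miR-132-3p was called lower, 4 of the 7 were called lower at a median of -1.14, or 3 with size factors. Of all 544, 216 were called lower there, or 158 with size factors, and edgeR and DESeq2 each called 2 of the 7. At Inv3 against P18, where mmu-miR-132-3p was called higher, the median was -0.32. There mmu-miR-138-5p was called lower, at -1.79 ± 0.18 (SE, limma, adjusted p = 1.19e-08), beside 53 of all 544. Where no change of mmu-miR-132-3p was detectable, 2 of the 7 were called lower at Lac7 than P18 and 3 at Inv3 than W10, beside 123 and 106 of all 544.

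The smooth muscle and pericyte list of 4, led by mmu-miR-143-3p, summed to 93897 ± 6798 RPM at W10, 147200 ± 7311 at P18, 139845 ± 7229 at Lac7 and then 248659 ± 29418 at Inv3. Of its 4, 2 were called higher at Inv3 than W10, or 3 with size factors, beside 30 of all 544, or 40 with size factors. At Lac7 against W10 limma on RPM called 0 of the 4, while size factors, edgeR and DESeq2 each called 2. At P18 against W10 limma on RPM called 0 and each of these called 1. With size factors 94 and 48 of all 544 were called higher in these comparisons. The endothelium list of 2, led by mmu-miR-126a-3p, lay between 15594 and 18466 RPM by stage mean, with 0 calls in limma, edgeR and DESeq2 in any comparison, although 1 or both were at an unadjusted p under 0.05 in 5 of the 6 limma comparisons. The red blood cell list, with 4 of 5 members measured and led by mmu-miR-451a, averaged 1207 RPM at W10, 648 at P18, 997 at Lac7 and then 855 at Inv3. At P18 against W10 2 of 4 were called lower (1 with size factors), and at Inv3 against P18 1 of 4 was called higher. Of all 544 tested miRNAs, 109 were called lower in the former and 24 higher in the latter. At Inv3 against Lac7, where mmu-miR-132-3p rose, 1 of 4 was called lower, as were 56 of all 544. At Lac7 against W10 1 was called higher and 1 lower, beside 57 and 216 of all 544. At Lac7 against P18 1 was called higher, beside 41. The skeletal muscle list of 4, led by mmu-miR-133a-3p, averaged 11360 RPM at W10 with single mice from 2378 to 24031, then 982 at P18, 2059 at Lac7 and then 381 at Inv3, and 4 of 4 were called lower at Inv3 than W10, where 106 of all 544 were. It was also lower at P18 and Lac7 than W10, as mmu-miR-132-3p was. There 3 of 4 were called lower at P18 (median -3.66) and 3 of 4 at Lac7 (median -2.78), or 3 and 2 with size factors. Of all 544 tested miRNAs, 109 and 216 were called lower in these comparisons. Where mmu-miR-132-3p was called higher, 2 of 4 were called lower at Inv3 than Lac7 (median -1.88) and 1 of 4 lower at Inv3 than P18 (median -0.89). Of all 544, 56 and 53 were. At Inv3 against Lac7 edgeR called 4 of the 4 and DESeq2 3, beside 151 and 141 of all 544 in either direction.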

How the data were processed

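The deposited table holds RPM values of 1009 miRNAs in 24 libraries, which the authors made with QuickMIRSeq and miRBase from QIAseq miRNA libraries. The submitters' processing notes name Trimmomatic 0.36, cutadapt, FastQC, MultiQC and GRCm38; whether molecular identifiers were used is not given in the sources used here. Columns not used numbered 0. Low values were whole multiples of what 1 read is worth in 100.0% of 11158 values, within 0.1 read, so reads could be recovered.

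The 4 stages were compared in 6 pairs in 1 fit of limma 3.58.1 (R 4.3.3, trend) on log2(RPM + 1), two-sided, with Benjamini-Hochberg adjustment over the 544 miRNAs that averaged 1 RPM or more in some stage. The pseudocount of 1 RPM understates changes of low miRNAs. Count tests on recovered reads (edgeR 4.0.16, DESeq2 1.42.0) were alternatives, beside other pseudocounts, filters, size factors, a replicate block and leaving out each mouse. Every listed value of the 24 libraries was used, and no 2 libraries of a stage matched within sampling noise. The text names the members, the 5 highest and 3 lowest by r, miRNA genes within 1000000 bases and members of the cell type lists. Sequences came from RefSeq, where 854 of the 1009 names matched (84.6%). The members and lists were chosen with earlier results of these data known. The ratio of the 3p arms of the 2 hairpins, and the likeness to mmu-miR-212-3p, were not run because that miRNA was not analysed here. The series design text and the labels give different days for lactation and involution, and those of the labels were used. That text also names inguinal glands, where the authors' paper gives the abdominal and inguinal glands stated above.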

Additional observations from a re-analysis of the deposited data

Results flagged for a closer look

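1 value stood far from the others of its stage. mmu-miR-212-5p in P18 mouse 3 measured 3.20 RPM, or 3 reads, against 0 to 1.15 RPM in the other 5 P18 mice, so its gap to the next mouse took up most of the range of the stage. For normally distributed values chance gives such a gap in about 1 in 20 groups, and 11 groups were looked at. These values are whole counts of 0 to 3 reads, to which that share was not fitted.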

How the results depend on the processing

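Values are fitted log2 differences. With a pseudocount of 10 RPM, mmu-miR-132-3p was -0.70 at P18 against W10, 0.75 at Inv3 against Lac7, -0.69 at Lac7 against W10 and 0.753 at Inv3 against P18, all under the fold limit, since a pseudocount near its level shrinks folds. Called miRNAs then numbered 88 at P18 against W10 (150 at 1 RPM), 82 at Lac7 against P18 (164), 79 at Inv3 against Lac7 (146), 152 at Lac7 against W10 (273), 69 at Inv3 against W10 (136) and 34 at Inv3 against P18 (77). Every other alternative kept these 6 counts within 1.5 times. edgeR called 133, 164, 151, 251, 111 and 66 in that order. Size factors changed the split of higher and lower calls, from 41 and 109 to 48 and 76 at P18 against W10, from 41 and 123 to 59 and 90 at Lac7 against P18, from 90 and 56 to 83 and 69 at Inv3 against Lac7, from 57 and 216 to 94 and 158 at Lac7 against W10, from 30 and 106 to 40 and 63 at Inv3 against W10, and from 24 and 53 to 28 and 40 at Inv3 against P18.

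mmu-miR-132-3p at P18 against W10 came to -0.938 with size factors, -0.930 in edgeR and -0.995 in DESeq2, and at Lac7 against W10 to -0.680, -0.718 and -0.634. At Lac7 against P18 it changed sign without a call, to 0.007 at 10 RPM, 0.257 with size factors, 0.212 in edgeR and 0.362 in DESeq2. mmu-miR-132-5p changed sign at Inv3 against W10 (0.03 with size factors, 0.425 in edgeR, 0.397 in DESeq2) and at Inv3 against P18 (-0.218 at 0.1 RPM). mmu-miR-212-5p at Lac7 against P18 lost its call at 10 RPM (-0.161), with size factors (-0.997) and in DESeq2 (-1.916); with 0 reads at Lac7 these coefficients are set by the pseudocount or the model and measure no fold. The causes were not tested.

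Leaving out 1 mouse kept the 4 calls of mmu-miR-132-3p, which ranged from -1.309 to -1.023 at P18 against W10, 1.091 to 1.396 at Inv3 against Lac7, -1.327 to -1.021 at Lac7 against W10 and 1.093 to 1.379 at Inv3 against P18. Uncalled differences crossed 0, from -0.169 to 0.158 at Lac7 against P18 and -0.056 to 0.188 at Inv3 against W10 for mmu-miR-132-3p, and from -0.48 to 0.157 at Inv3 against W10 and -0.075 to 0.562 at Inv3 against P18 for mmu-miR-132-5p. The coefficient of mmu-miR-212-5p at Lac7 against P18, likewise no fold, ranged from -1.228 to -0.814, and lost its call without P18 mouse 3.

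With the replicate number as a block, mmu-miR-132-3p was -1.219 at P18 against W10 and 1.262 at Inv3 against Lac7, no member changed its call, and called miRNAs numbered 150, 163, 146, 276, 127 and 76 in the order above. No pairing by number was seen, at a mean r of -0.045 over 33 pairs with the same number and 0.004 over 183 others. Of the 33 pairs, 13 correlated above 0.1. Whether the number marks a batch was not tested. The ratio of mmu-miR-132-3p to mmu-miR-212-3p was not run. A filter at 10 RPM left out mmu-miR-132-5p and mmu-miR-212-5p. Depth limits both, at 0 to 9 and 0 to 3 reads per library.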
